A study of Mus musculus with 8 samples.

Results

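Promoter sites that carried both wild type KLF1-ER and mutant KLF1-E339K-ER are described here. They were chosen by 3 values of the authors' merged list of ChIP-seq sites: a wild type concentration of at least 4, a mutant concentration of at least 4 and a middle no more than 1000 bp from a transcription start site (TSS). The rule found 414 of the 5551 listed sites (7.46%) and 414 of the 2190 sites that lay within that distance of a TSS (18.9%). The concentration is the log2 of the mean normalised read count at a site, so 1 unit is 2-fold. A concentration of at least 4 is no peak call, so these sites need not be those that the study counts as co-occupied. Because both concentrations chose the sites, every comparison between the proteins is given as a description and none was tested.

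The study compared wild type KLF1 with its mutant by where each bound the genome and by the RNA newly made in their presence. K1 cells, the parent line, are immortalised erythroid cells from the fetal liver of Klf1-/- mice. In K1-E339K-ER cells a retroviral MSCV transgene adds the mutant protein joined to a modified ligand-binding domain of the estrogen receptor, so that 4-OHT brings it into the nucleus. The mutant ChIP was 1 library with 1 input library, both from clone 2A, pooled from 3 replicates after 3 h in 200 nM 4-OHT, with an antibody to the receptor domain. The wild type values stem from earlier libraries of K1 cells carrying KLF1-ER, which are not among the samples of the series and whose number, dose and time of induction were not checked here. In every difference given, the protein and the set of libraries cannot be told apart. For RNA, K1 cells gave 2 libraries with 200 nM 4-OHT and 1 with ethanol, and K1-E339K-ER cells gave 3 libraries with 4-OHT from separate clones, all labelled with 500 µM 4sU for 30 min according to the sample labels, while the study's methods state another concentration and time. Each site has 1 value per protein and the number of reads behind it is not stated, so no error between replicates can be given.

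KLF1 is a transcription factor of red cell precursors that binds G-rich stretches of DNA, the CACC boxes, through zinc fingers at its C-terminal end. It switches on genes of globin, heme and membrane skeleton production, and many of its sites lie close to gene starts. The E339K change replaces a residue of a zinc finger that contacts DNA, and the matching change in people causes a dominant congenital dyserythropoietic anemia.

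The sequence around each site was searched on both strands for a pair of 9-letter motifs that differ at letter 5. The pyrimidine motif, with C or T at that letter, takes in the 4 words NGGGCGTGG, NGGGCGGGG, NGGGTGTGG and NGGGTGGGG. The purine motif, with G or A there, takes in NGGGGGTGG, NGGGGGGGG, NGGGAGTGG and NGGGAGGGG. A stretch of DNA can hold words of both motifs that share letters, and a match describes the letters without showing that a protein sat on them. For most of the sites named by rule for their concentrations, the match nearest the middle of the site is printed in capitals within 29 bases of the mm9 (NCBIM37) genome, read 5′ to 3′ on the strand where it is G-rich. The distance of the match from the middle of the site is given with it, and a match more than 50 bp away, as at Midn, Capn1, Slc30a10, Avpi1, Rtn4rl2, Gse1, Myh9, Syne3 and Cpt1b, lies outside the window used for the motif classes, so that these sites count there as having neither motif. The sites with the highest lower concentration of the pair come first, because both proteins gave strong signal at them.
Midn: gggcgggcaaGGGGCGGGGggccgggcaa (reverse strand, 87 bp from the middle of the site at chr10:79610555-79611505)
Esd: gagggacttgAGGGCGGGGccgtgagagg (forward strand, 11 bp from the middle of the site at chr14:75131726-75132271)
Capn1: gcggtggaggAGGGCGGGGaggagggcag (reverse strand, 70 bp from the middle of the site at chr19:6015067-6015530)
Slc30a10: gcggggggggTGGGGGGGGcggtctggag (reverse strand, 163 bp from the middle of the site at chr1:187278416-187279050)
Sp4: cggtggcagcAGGGCGTGGccggggccga (forward strand, 26 bp from the middle of the site at chr12:119540444-119540944)
Avpi1: gcacgcaggcGGGGCGGGGtcgcattcct (forward strand, 60 bp from the middle of the site at chr19:42203512-42203930)
St3gal1, whose site held no match to either motif, and Dleu2 also belong to this group.

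The sites where the mutant concentration stood furthest above the wild type concentration are shown to give the letters at that end of the range. Brd2 also belongs there, and its nearest match, of the pyrimidine motif, lies 26 bp from the middle of its site.
Rtn4rl2: tcgacgatcgGGGGAGGGGgcggcggggg (forward strand, 64 bp from the middle of the site at chr2:84726505-84727364)
Gse1: caggggtgctGGGGGGTGGagaaaattaa (reverse strand, 57 bp from the middle of the site at chr8:123011822-123012464)
Rreb1: gcgcctagggAGGGCGTGGggcaaacttg (forward strand, 6 bp from the middle of the site at chr13:37917235-37918120)
Pbx2: gaggcggctgGGGGAGGGGagcgggagga (reverse strand, 2 bp from the middle of the site at chr17:34728576-34729784)
The sites at the opposite end, where the wild type concentration stood furthest above that of the mutant, are shown for contrast.
Myh9: gtgtggggagAGGGCGGGGactcttggaa (reverse strand, 54 bp from the middle of the site at chr15:77672442-77672991)
Pim1: caaaacggagGGGGAGGGGcgctgggcgt (reverse strand, 17 bp from the middle of the site at chr17:29627233-29627540)
Rgcc: tgccgggagtAGGGGGTGGagggacaggg (reverse strand, 20 bp from the middle of the site at chr14:79701336-79701722)
Uck2: gttaatccggCGGGTGGGGaggggagtgg (reverse strand, 4 bp from the middle of the site at chr1:169215220-169215533)
Gm10516: cagggcatcgCGGGCGGGGaggctggcag (reverse strand, 32 bp from the middle of the site at chr1:193961024-193961334)
The sites with the smallest difference among those where both concentrations were at least 5 mark the middle of the range, and Icam4 is added as a red cell gene among the 414 sites that the study names.
Chchd7: ctgtccagggAGGGAGGGGccggagacca (reverse strand, 40 bp from the middle of the site at chr4:3865686-3866492)
Itpripl1: cttcgagcaaGGGGTGGGGtttgtcgggg (reverse strand, 43 bp from the middle of the site at chr2:126969066-126969456)
Syne3: gggcggctccGGGGCGGGGcggggccggg (forward strand, 91 bp from the middle of the site at chr12:106247786-106248600)
Cpt1b: cgcccagggaAGGGAGTGGccccagcact (forward strand, 87 bp from the middle of the site at chr15:89255877-89256528)
Nckap5l: tgggttgcggAGGGAGGGGgctctcccca (reverse strand, 41 bp from the middle of the site at chr15:99287393-99287825)
Icam4: ggcccattctGGGGCGTGGccagggtgcc (forward strand, 7 bp from the middle of the site at chr9:20833665-20833979)

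Across the 414 sites wild type KLF1-ER ranged in concentration from 4.00 to 8.42, and its median was 5.26 (quartiles 4.62 and 6.06). For the mutant the range was 4.00 to 8.61 and the median 5.44 (quartiles 4.65 and 6.26). The cut at 4 on both axes shapes these ranges and any relation between them, so the following is a description of the sites chosen. Spearman's rho between the concentrations was 0.01 and Pearson's r was 0.05 (n = 414 sites, which share the libraries of each protein).

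**Figure D1:**
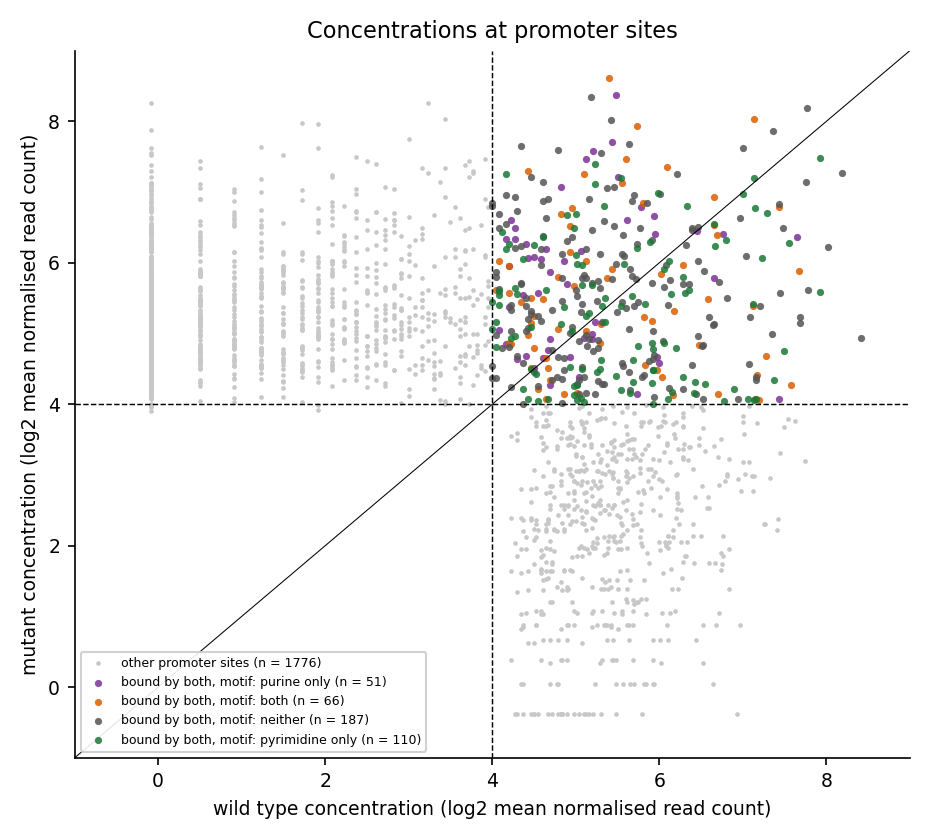
Each point is a promoter site, with the wild type concentration on the horizontal axis and the mutant concentration on the vertical axis (both log2 mean normalised read count), the dashed lines mark the threshold of 4, the solid line marks equal values, and colours give the motif class of the 414 sites bound by both. The 414 sites fill the upper right square without forming a diagonal, and the 1776 other promoter sites in grey lie in the strips where at least 1 of the concentrations was under 4.

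The difference, mutant minus wild type, centred on a median of 0.06 (quartiles -0.84 and 1.06) and ranged from -3.48 to 3.31. The mutant value was the higher at 216 sites, the wild type value at 197, and they were equal at 1, the site of Chchd7. Within these limits 215 sites (51.9%) differed by less than 2-fold. The mutant concentration was at least 2-fold higher at 111 sites (26.8%), where over all 5551 sites that share was 61.5%. The wild type concentration was at least 2-fold higher at 88 (21.3%), beside 28.7% over all sites. At least 4-fold differences were found for the mutant at 37 sites (8.94%, all sites 55.3%) and for the wild type at 32 (7.73%, all sites 23.3%). The rule removes sites where either protein was low, so nothing is read from these shares.

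Sites just inside and just outside the thresholds carried near-identical values. The lowest wild type concentration inside was 4.00, at several sites that included those of Hnrpll, Crebrf and Fam169a. The highest outside was 3.95, as at Sptb, Rara and BC048644. For the mutant, the lowest inside were 4.00 for Crk, 4.01 for Rragc and 4.02 for Cgrrf1, and the highest outside were 3.99 for Hebp1, 3.98 for Chst14 and 3.98 for Aspscr1. By distance, Blvrb at 1000 bp and Dleu2 at 992 bp were among the last inside, and Set at 1018.5 bp, C030006K11Rik at 1020.5 bp and Smad6 at 1023.5 bp were the next outside. A further 74 promoter sites missed the rule with a wild type concentration from 3.5 to under 4, and 87 with a mutant concentration in that range.

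The 8 sites where the lower concentration was highest belonged to genes of varied function. Midn, which encodes midnolin, led with 7.77 for wild type and 8.19 for mutant, 5 bp upstream of the TSS. Esd, the gene of esterase D, had 7.92 for wild type and 7.48 for mutant. Capn1, which encodes the catalytic subunit of a calcium-dependent protease, had 7.36 for wild type and 7.86 for mutant. These 3, like the rest of the 8, had at least 7 for each protein. At Slc30a10, the gene of a manganese exporter, the values were 8.19 for wild type and 7.27 for mutant. St3gal1, a sialyltransferase gene, had 7.76 and 7.15 in the same order, without a match to either motif anywhere in the site. Sp4, a zinc finger factor of the same wider family as KLF1, had 7.13 and 7.20. The values then turned towards the mutant at Dleu2, a non-coding host gene of microRNAs, with 7.13 for wild type and 8.03 for mutant. Avpi1, a vasopressin-induced gene, closed the group with 7.62 for the mutant, 0.62 above its wild type value.

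At the mutant end, Rtn4rl2, a gene of the Nogo receptor family, had 4.34 for wild type and 7.65 for mutant, a 9.92-fold difference. Brd2, a BET bromodomain gene, had the highest mutant concentration of all 414 sites at 8.61, 9.25-fold above its wild type value. Gse1 stood at 5.18 for wild type and 8.34 for mutant (8.94-fold). The wild type values of these 3 genes lay below or only just above the median of the set. Rreb1, a zinc finger factor gene, had 4.16 and 7.25 (8.52-fold), and Pbx2, which encodes a homeodomain partner of HOX proteins, had 5.48 and 8.38 (7.46-fold). Over the 37 sites at least 4-fold higher for the mutant, the wild type median was 4.46 and the mutant median 7.08.

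At the wild type end, Myh9, which encodes a heavy chain of non-muscle myosin, had the highest wild type concentration of the set at 8.42 and a mutant concentration of 4.94 (11.2-fold). Pim1, a cytokine-responsive kinase gene, had 7.43 for wild type and 4.07 for mutant (10.3-fold). Rgcc, a cell cycle regulator, had 7.58 and 4.27 (9.92-fold). Here the mutant value sat close to the threshold of 4. Uck2, a uridine-cytidine kinase gene, had 7.19 and 4.06 (8.75-fold). Gm10516, a predicted gene that overlaps Rcor3, had 7.16 and 4.08, a difference of -3.08 that Bri3 equalled with 7.15 and 4.07. Over the 32 sites at least 4-fold higher for the wild type, the wild type median was 7.16 and the mutant median 4.25.

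Near-equal pairs were found at both strong and middling levels. Chchd7, a mitochondrial protein gene, had 6.45 for each protein. Itpripl1 had 6.98 for mutant, a difference of -0.02 from the wild type, and Syne3, which encodes a nesprin of the nuclear envelope, had 6.46 for wild type and 6.51 for mutant. At Cpt1b, which encodes the muscle form of an enzyme of fatty acid import into mitochondria, the values were 5.72 and 5.77, and at Nckap5l they were 5.23 and 5.17. In all, 163 sites (39.4%) had both concentrations at 5 or more, and among these the median difference was 0.11.

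Within 50 bp of the middle of the site, a window of 101 bp, 176 of the 414 sites (42.5%, 95% Wilson interval 37.8 to 47.3) held the pyrimidine motif. The purine motif was found at 117 (28.3%, 24.1 to 32.8) and both at 66 (15.9%, 12.7 to 19.8). That leaves 51 sites with the purine motif alone, 110 with the pyrimidine motif alone and 187 (45.2%) with neither. The window covers less of a wide site. Sites with neither had a median width of 467 bp, against 375 bp with purine alone, 386.5 bp with pyrimidine alone and 370 bp with both. The intervals cover counting error only, and sites are not replicates of a condition. The same was done in windows of that length around 22336 starts of protein-coding genes of the annotation, called gene starts here. Of these, 16.6% held the pyrimidine motif, 8.35% the purine motif and 3.06% both. Starts of non-coding genes, and windows with unread bases, were left out. Gene starts are less GC-rich than the sites, as given further on, and the part of base composition in these shares was not tested.

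Set beside other sites, the shares lay between those of the promoter sites strong for a lone protein. Where the mutant was at least 4 and the wild type under 2 (812 promoter sites), the purine motif was found at 43.3% and the pyrimidine motif at 20.4%. Where the wild type was at least 4 and the mutant under 2 (222 promoter sites), the shares were 9.01% and 61.3%. Among the 742 other promoter sites they were 26.4% and 45.7%, close to those of the sites bound by both. The share with both motifs was 10.7%, 5.86% and 11.6% in these groups in turn, all under the 15.9% of the 414 sites. Away from promoters, the 469 sites bound by both held the purine motif at 30.5%, the pyrimidine motif at 34.1% and both at 14.5%. None of these differences was tested, since the groups were drawn from the same concentrations.

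**Figure D2:**
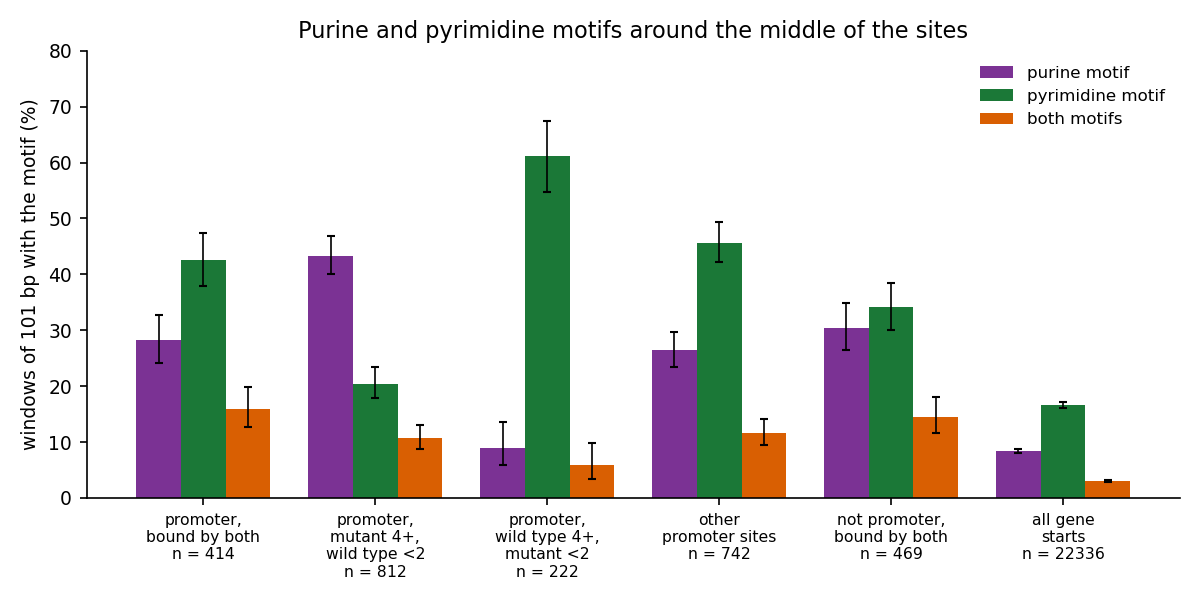
Bars give the percent of 101 bp windows with the purine motif, the pyrimidine motif and both in 5 groups of sites and in gene starts, which are those of protein-coding genes only. Error bars are 95% Wilson intervals for counting error. Promoter sites bound by both have a pyrimidine bar of 42.5% and a purine bar of 28.3%, between the mutant-strong group (20.4% and 43.3%) and the wild type-strong group (61.3% and 9.01%).

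By word, NGGGCGGGG was the most common and was found at 105 sites (25.4%, against 19.4% of the 1776 other promoter sites and 11.1% of gene starts). NGGGAGGGG followed at 75 sites (18.1%, 16.0% and 4.83%), and NGGGTGGGG at 61 (14.7%, 11.8% and 3.38%). These 3 words end in GGGG, and the words that end in GTGG were rarer. NGGGGGTGG was found at 28 sites (6.76%, 10.8% and 2.23%), NGGGCGTGG at 23 (5.56%, 7.32% and 2.54%) and NGGGAGTGG at 15 (3.62%, 2.14% and 1.01%). NGGGGGGGG was found at 14 (3.38%, 8.11% and 1.03%) and NGGGTGTGG at 13 (3.14%, 2.98% and 1.10%). Beside other promoter sites the 414 sites thus had some words more often and others less often, and none of these differences was tested. Spelled in full, GGGGCGGGG was the leading word with 59 sites, ahead of GGGGAGGGG with 38 and GGGGTGGGG with 31.

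The difference between the proteins was then set beside the letter. Sites with the purine motif alone differed between the proteins by a median of 0.81 (quartiles -0.18 and 1.62, 95% interval of the median 0.10 to 1.17), and those with the pyrimidine motif alone had -0.27 (quartiles -1.08 and 0.76, interval -0.58 to 0.07). Sites with both stood between them at 0.17 and those with neither at 0.11. The medians of the single-motif classes were 1.08 apart. Between the facing ends and between the far ends of their intervals the gap was 0.03 to 1.75, a span that included 0 under 4 of 6 alternatives. That span takes sites as independent and both concentrations chose the sites, so it is a description and no test. The classes overlapped over most of their ranges (-3.36 to 2.90 and -3.08 to 3.09). At the extremes, the purine motif alone was found at 9 of the 37 sites at least 4-fold higher for the mutant and at 1 of the 32 at least 4-fold higher for the wild type, the Pim1 site. These classes hold for the 101 bp window. In the whole site, Pim1 held both motifs, as did Pbx2 at the mutant end. The pyrimidine motif alone was found at 5 and 12 of them, both motifs at 4 and 7, and neither motif at 19 and 12. Counted with or without the other motif, the purine motif was found at 13 and 8 of them and the pyrimidine motif at 9 and 19.

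**Figure D3:**
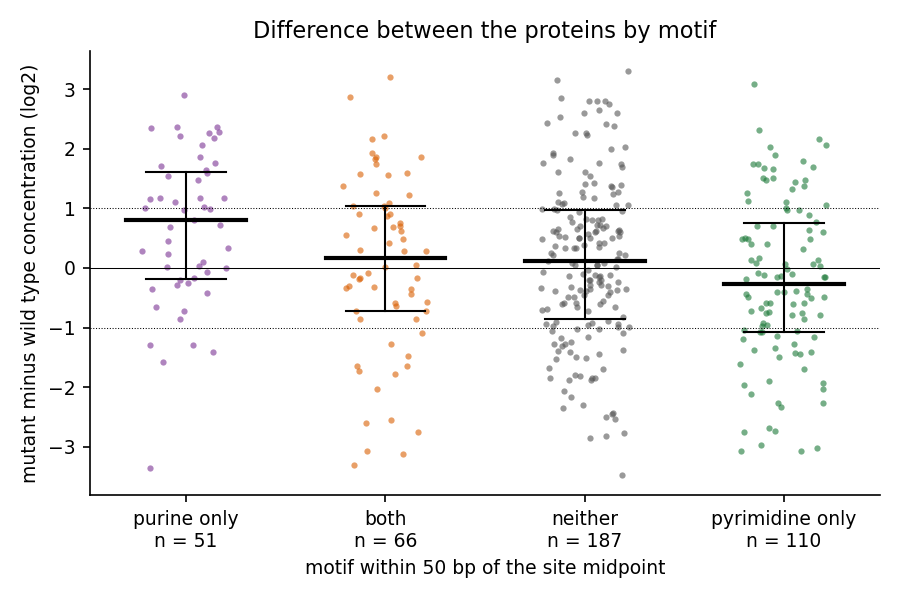
Points are the 414 sites by the motif found within 50 bp of the midpoint, the vertical axis is the mutant minus wild type concentration (log2), thick bars are medians, thin bars are quartiles and dotted lines mark 2-fold. The medians run from 0.81 for the purine motif alone through 0.17 for both and 0.11 for neither to -0.27 for the pyrimidine motif alone, with wide overlap.

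Split by the letter itself, sites whose matches all had C at letter 5 had a median difference of -0.44 (interval -0.79 to 0.07), with the wild type higher at 42 of 69. Those with T had 0.13 (-0.72 to 0.97), with the mutant higher at 16 of 29. Both intervals included 0 and overlapped, and the letters were not tested against each other. With A the median was 0.28 (-0.16 to 1.01) and the mutant was higher at 22 of 37, and with G it was 1.17 (0.34 to 1.59) and the mutant was higher at 10 of 10. The class with G is small, and its sites, like the others, were required to have a wild type concentration of at least 4.

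Many sites held several matches. Within 101 bp, 119 sites had 1 match, 66 had 2 and 42 had 3 or more, up to 12 at a site of Gm15417. At 26 of the 66 sites with both motifs, purine and pyrimidine matches shared letters, and the starts of the closest pair were a median of 12 bp apart. When the whole site was searched, 276 sites (66.7%) held the purine motif, 332 (80.2%) the pyrimidine motif, 234 (56.5%) both and 40 (9.66%) neither. Among other promoter sites, 42.4% held neither motif within 101 bp and 14.8% held neither in the whole site. The 414 sites were wider than these, with a median of 416.5 bp against 329 bp. Whole-site shares are thus not on the same length, and the 101 bp window covered less of each of the wider sites. Width also went with signal: the lower of both concentrations and the width had a Spearman's rho of 0.42 (n = 414). Among the 234 sites with both motifs, the 98 whose purine match lay nearer the middle had a median difference of 0.37 (interval -0.16 to 0.99), and the 135 whose pyrimidine match lay nearer had 0.01 (-0.32 to 0.40). Both intervals included 0 and overlapped, and the contrast was not tested.

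The density of matches at the middle was set beside that of the flanks. Purine matches numbered 4.40 per kb within 50 bp of the middle and 2.33 per kb at 200 to 300 bp from it, a ratio of 1.89, and pyrimidine matches numbered 5.69 and 2.42 (2.36). Away from promoters, sites bound by both had ratios of 3.52 for the purine and 3.56 for the pyrimidine motif. The promoter sites with a mutant concentration of at least 4 and a wild type concentration under 2 had ratios of 4.54 for the purine and 1.44 for the pyrimidine motif, and those strong for the wild type alone had 1.18 and 7.08. The 742 other promoter sites had 2.73 and 4.28, both above the ratios of the 414 sites, and no difference between the groups was tested. The 414 sites had a median width of 416.5 bp, against 330 bp for those 742. The flanks at 200 to 300 bp thus lay partly inside many of the 414 sites, so the ratios of the groups are not like for like. By number of matches, the purine motif of the 414 sites was densest off centre, with 7.73 per kb at -80 to -60 bp. These 64 matches came from 30 sites, with up to 7 at a site of Ndrg2. By number of sites, more held a purine match at -40 to -20 bp (33) and at -20 to 0 bp (32). Stretches with many overlapping matches add to single bins, as at a site of Prmt1, which gave 13 of the 48 purine matches found 60 to 80 bp to the right of the middle.

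**Figure D4:**
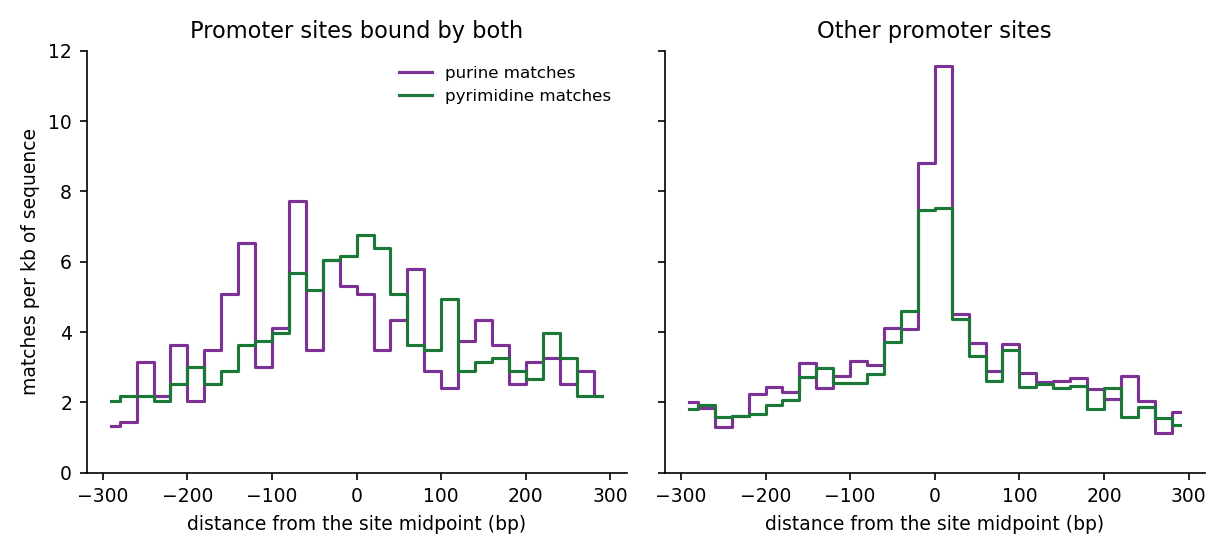
Lines give purine and pyrimidine matches per kb in bins of 20 bp against the distance from the site midpoint (bp), for the 414 sites bound by both (left) and the 1776 other promoter sites (right). Other promoter sites show a sharp central peak. At the sites bound by both, the pyrimidine line has its highest bin at 0 to 20 bp (6.76 per kb). The purine line has its highest off centre, at -80 to -60 bp (7.73) and -140 to -120 bp (6.52). Those off-centre bins hold purine matches at 30 and 27 sites, against 33 at -40 to -20 bp and 32 at -20 to 0 bp.

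Base composition was that of GC-rich promoters. In 301 bp around the middle, the median GC content was 66.8%, against 65.1% at other promoter sites and 58.1% at gene starts. The CpG observed over expected ratio had a median of 0.669, against 0.672 and 0.597. Sites bound by both away from promoters had 58.5% GC and a CpG ratio of 0.247, so the 414 sites resembled other promoter sites here rather than those. The difference between the proteins showed little relation to GC content (Spearman's rho 0.03, n = 414).

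Words of other promoter factors were searched in the same 301 bp on both strands. CCAAT, the box bound by NF-Y, was found at 102 sites (24.6%), against 27.8% of other promoter sites and 35.8% of gene starts. TATAAA, the core promoter box, was found at 18 (4.35%), against 3.60% and 10.8%. Both boxes were thus less frequent than at gene starts in general, which are also less GC-rich. The windows of gene starts lie around the TSS, while the middles of the 414 sites lay a median of 203.5 bp from it. The part of this offset in the shares was not tested. AGATAA or TGATAA, words bound by GATA factors, were found at 65 sites (15.7%), against 10.9% and 14.1%. CACGTG, an E-box, was found at 9.90% (8.16% and 7.29%). CCGGAAG, an ETS word, was found at 11.1% (10.4% and 11.3%), and TGACTCA, bound by AP-1, at 4.11% (3.72% and 3.91%). The median mutant minus wild type difference at the sites with each word was 0.66 for the GATA words, 0.62 for CACGTG, 0.09 for CCGGAAG, -0.20 for TGACTCA, -0.24 for CCAAT and -0.44 for TATAAA. Those medians rest on 65 sites for the GATA words, 41 for CACGTG and fewer for some others. They carry no interval and were not tested, and their overlap with the motif classes or the position from the TSS was not looked at. These words are shorter than the motifs and the windows longer, so their shares are not comparable with those above.

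The distance to the TSS, which the rule limits, was much like that of other promoter sites. The median was 203.5 bp, against 229 bp for those. The middle lay within 100 bp at 129 sites (31.2%, other promoter sites 28.5%), within 250 bp at 238 (57.5% and 52.9%) and within 500 bp at 328 (79.2% and 76.1%). Of the 414, 252 (60.9%) lay upstream, against 52.6% of other promoter sites. By the annotation, the middle fell in intergenic sequence at 169, in an intron at 133, in a UTR at 91, in a non-coding exon at 11 and in a coding exon at 10. At 28 sites (6.76%, other promoter sites 8.90%) starts of genes on opposite strands diverged within 1000 bp.

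The balance between the proteins was also set beside position. The median difference was -0.15 upstream of the TSS (interval -0.35 to 0.13) and 0.49 at the 162 downstream sites (0.05 to 0.69), and this was not tested. It lay between -0.21 and 0.05 in the upstream bins and was -0.10 in the first 100 bp downstream (41 sites). Further into the gene it turned to the mutant side, with 0.64 from 100 to 250 bp (34 sites), 0.86 from 250 to 500 bp (40 sites) and 0.81 from 500 to 1000 bp (47 sites).

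**Figure D5:**
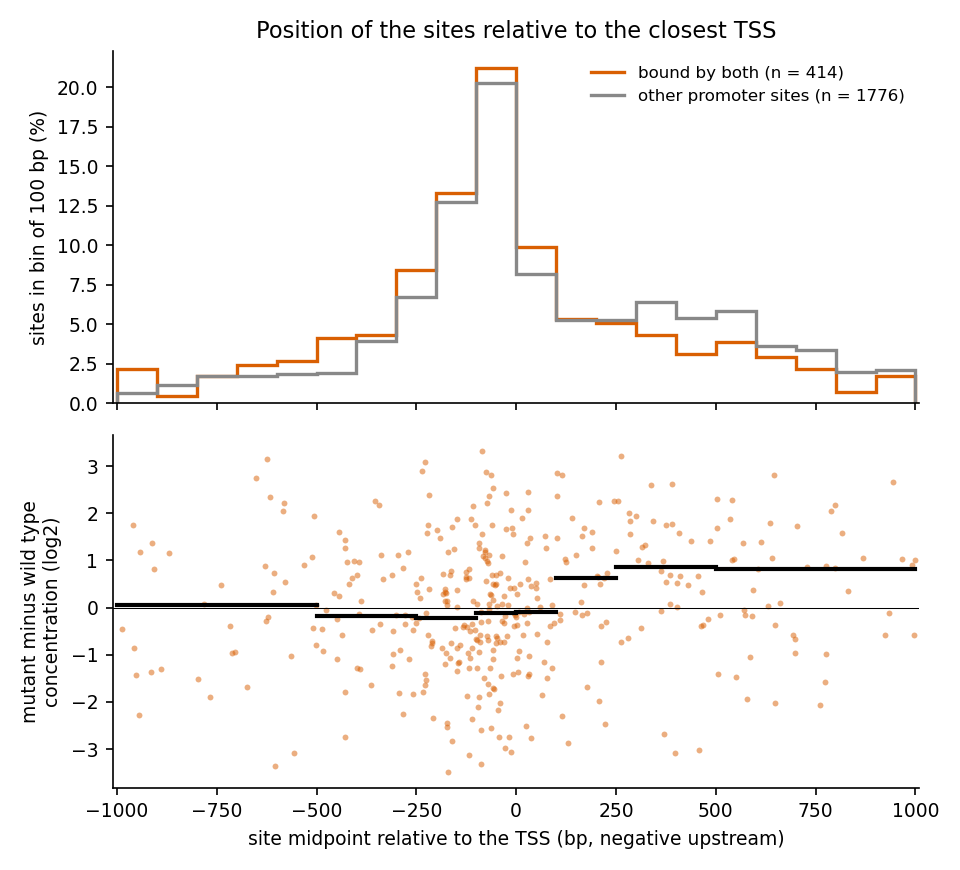
The upper panel gives the percent of sites in bins of 100 bp by the position of the midpoint from the closest TSS (bp, negative upstream) for the 414 sites bound by both and the 1776 other promoter sites. The lower panel gives each of the 414 sites with its mutant minus wild type concentration (log2). Bars there are medians of unequal bins, with edges at 0, 100, 250, 500 and 1000 bp on each side of the TSS. They rise from near 0 upstream to 0.86 at 250 to 500 bp downstream.

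The 414 sites had 392 closest genes, 20.7% of the 1892 genes with a promoter site of any kind. Of these genes, 22 had a pair of sites that met the rule, with middles a median of 774.75 bp apart. The signs of the differences were the same in 10 of these pairs and opposite in 12. At Tctn1, a gene of the ciliary transition zone, a site with 5.42 for wild type and 8.02 for mutant abutted another with 6.28 and 4.38. At Zbtb7a, which encodes a repressor of fetal globin genes, a site had 6.64 and 5.12, and another 725 bp away had 5.73 and 7.94. These are the only pairs past 2-fold in opposite directions, so neighbouring sites of a promoter could differ in which protein had the higher value. Pairs past 2-fold in the same direction were found at Gm10516, Gm15417, Kpnb1 and Tgfb1. For Tgfb1, the gene of a secreted growth inhibitor, the differences of 1.66 and 1.69 were almost the same. A further 374 listed sites had these genes as their closest, spread over 179 of them.

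The gene lists are set beside the 20.7% of all genes with a promoter site that had a site bound by both. They are small, and no list was tested against that share. Among red cell and heme genes, 7 of the 20 (35.0%) with a promoter site had a site bound by both, with a median difference of -0.11. Epor, the erythropoietin receptor gene, had 6.66 for wild type and 6.55 for mutant. Blvrb, a biliverdin reductase gene, had 5.98 and 6.99, and Pklr, which encodes the red cell pyruvate kinase, had 4.86 and 4.49. The blood group genes fell on both sides. Ermap, the Scianna antigen gene, had 4.55 for wild type and 5.25 for mutant, and Kel, of the Kell antigen, had 4.34 and 6.24. Icam4, of the LW antigen, had 5.69 and 4.32, with a pyrimidine match 7 bp from the middle of a site 5 bp downstream of the TSS. Gypc, which encodes the membrane sialoglycoprotein of the Gerbich antigens, had 5.54 for wild type and a difference of -1.34.

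Of 8 erythroid transcription factor genes with a promoter site, 5 had a site bound by both, and the median over their 6 sites was -1.05. Gata1, the master regulator of red cell and megakaryocyte genes, had 7.43 for wild type and 6.79 for mutant. Ldb1, which encodes the adaptor of GATA1 and TAL1 complexes, had 7.12 and 5.39, and Foxo3, a forkhead factor of late red cell maturation, had 5.65 for wild type and a difference of -1.45. The mutant value was the higher at Lyl1, a relative of TAL1, with 6.01 and 6.98, and at the Zbtb7a site with 5.73 and 7.94, while the other Zbtb7a site had 6.64 and 5.12. Among KLF and SP factors, 3 of 8 genes were included. Besides its strong site, Sp4 had a further one with 5.78 for wild type and 6.79 for mutant. Klf16 had 6.58 and 5.49, and Klf13 had 5.92 and 4.49, so both KLF genes leaned to the wild type.

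Chromatin regulators contributed 5 of 27 genes (18.5%, near the share of all genes). The median difference of these 5 sites was 2.39, and the lowest was 0.05. These values hold for the listed genes only. Chromatin genes outside the list fell on both sides, such as Baz1b with -0.79 and Baz2a with 1.59. Ep300, a histone acetyltransferase gene, had 4.16 for wild type and 6.96 for mutant, and Hdac5, a histone deacetylase gene, had 4.16 and 6.55. At Kat6b, another acetyltransferase gene, the values were 5.58 and 5.98. Brd3, a BET gene related to Brd2, had 4.72 and 4.77. The BET genes thus lay at very different points, with Brd2 at the mutant end and Brd3 balanced. Of 16 cell cycle regulators, Cdk4, a kinase gene of G1 phase, had 5.12 and 5.25, and Cdc25b, a phosphatase gene that promotes mitosis, had 5.92 and 4.64.

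Signalling genes contributed 5 of 25, with Gab1 at 5.73 for wild type and 6.21 for mutant, Nras at 5.54 and 5.39 and Map3k11 at 4.58 and 5.97 beside Tgfb1 and Pim1. Cytoskeleton genes were the list with the most members, 11 of 23 genes (47.8%) and 12 sites, and their median difference was -0.65. Tuba1c, a tubulin gene, had 7.23 and 6.07, and Dstn, which encodes an actin-severing factor, had 5.70 and 5.39. Pfn1, the profilin gene, had a site with 5.43 and 5.91 and another with 5.73 and 4.15. The mutant was at least 2-fold higher at 2 of the 12 sites (26.8% of the 414 sites, 61.5% of all sites), and the wild type at 5 (21.3% and 28.7%). Tubb2a, another tubulin gene, had 5.06 and 5.31. No septin gene met the rule.

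Solute carriers contributed 6 of 46 genes (13.0%) with a median of -1.10 and a range from -3.07 to 1.75. Slc6a9, a glycine transporter gene, had 5.51 for wild type and 7.22 for mutant. Slc12a4, a potassium-chloride cotransporter gene, had 4.61 and 6.36, whereas Slc44a2, a choline transporter gene, had 5.83 and 4.55. The remaining members, Slc9b2 with 7.13 and 4.06 and the dopamine transporter gene Slc6a3 with 6.78 and 4.04, were higher for the wild type, as was Slc30a10.

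Zfp zinc finger genes contributed 6 of 34 (17.6%) with a median of 0.17. Zfp367 had 7.67 and 5.89, Zfp143 had 4.95 and 6.78, Zfp36l2 had 5.00 and 5.62 and Zfp664 had 4.69 and 4.34. The ubiquitin pathway contributed 4 of 30 genes (13.3%). Of the deubiquitinase genes among them, Usp32 had a site with 5.81 and 6.85 and another with 4.86 and 5.37, Usp34 had 4.80 for mutant, 0.30 above the wild type, and Usp46 had 4.46 and 5.15. RAB and TBC genes contributed 2 of 12, Rab5c with 5.02 and 5.53 and Rab1 with 5.21 and 4.76. Autophagy genes contributed 2 of 5. Tfeb, the master regulator of lysosome genes, had 4.08 and 5.05, and Map1lc3a, of the LC3 family, had 5.02 and 4.06. Of 3 mitochondrial ribosomal protein genes with a promoter site, Mrps28 was included with 4.87 for mutant, 0.67 above the wild type. None of 6 cytosolic ribosomal protein genes and not the 1 gene of the proteasome list with a promoter site met the rule. Pomp, a proteasome maturation gene outside that list, met it with 4.27 for wild type and 4.97 for mutant. No listed histone gene had a promoter site at all.

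The genes of these sites were mostly well represented in the RNA data. The authors' mean expression, in log2 CPM (reads scaled to library size) over all 4sU-RNA libraries of their fit, is a level and not a comparison between cells. It was listed for 401 of the 414 sites (379 of 392 genes), with a median of 6.15 (quartiles 4.60 and 7.38). Genes of other promoter sites had a median of 6.07 (1652 sites), and the 11928 symbols listed with 1 value had 5.26. Divided by gene length in kb, the medians were 1.81, 1.23 and 0.81 on the log2 scale. The levels of these genes were thus above those of listed genes in general on both scales, while within the set the level showed little relation to the lower concentration (Spearman's rho -0.04, n = 401) and to the difference between the proteins (-0.003). The listed levels ran from -1.19 for 9530027J09Rik to 10.97 for Gse1.

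Markers of the labelled cell type were present. All 11 erythroid markers were listed, with a median of 7.06 log2 CPM, led by Zfpm1 at 10.80, Gata1 at 9.79 and Tal1 at 9.48. The globin genes Hbb-b1 at 3.87 and Hba-a1 at 3.79 were the lowest of them. Of 7 myeloid markers 3 were listed, Mpo at 1.84, Elane at 0.77 and Sfpi1 at 0.39. Itga2b at 5.30 was the only one listed of 5 megakaryocyte markers, and none of the 5 lymphoid and 4 hepatocyte markers was listed.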

How the data were processed

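For the site list, the authors called peaks, merged them and used DiffBind to give the deposited concentrations, which are log2 of the mean normalised read count over the libraries of a protein, with mm9 positions. For RNA, the submitters' notes name TopHat2 2.0.10 and limma, and the deposited mean expression is in log2 CPM. Gene lengths and TSS distances are in base pairs per the file headers, and how length was taken is not stated. The depth of the libraries is unknown. The authors' comparison columns (fold changes, t, p-values and their adjustments) were not used.

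Python 3.11.15 with numpy 2.4.6, pandas 2.3.3, scipy 1.17.1 and matplotlib 3.10.9 was used. Sequences were read from NCBIM37 and annotation from GENCODE release M1. Motif matches lay wholly within 50 bp of the midpoint, and the search was tested on simulated data. The difference is the mutant minus the wild type concentration. Gene symbols turned into dates (20 sites, 5 of them promoter sites) were read back as septins. Symbols with more than 1 expression value were left without a level. Shares carry 95% Wilson intervals, and medians 95% intervals from the order of the values, which take sites as independent. No test was run, because the rule used both concentrations and each protein has 1 value per site.

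Named sites were drawn from the 8 with the highest lower concentration, the 5 with the largest difference in each direction, the 5 with the smallest difference where both values were at least 5, up to 4 per gene list, those of genes the study names and the 3 next to each threshold. Kel, Gypc, Foxo3, Ep300, Map3k11, Slc9b2, Slc6a3, the weaker sites of Zbtb7a and Pfn1, Bri3, Prmt1, Gm15417, Tctn1, Kpnb1 and 9530027J09Rik were named after their values were seen. So were Baz1b, Baz2a, Pomp and Ndrg2. The 414 sites, the 16 gene lists and the markers were chosen with earlier results of these data known. In all, 37 alternatives were run, with other thresholds, windows and folds and with 1 site per gene.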

Additional observations from a re-analysis of the deposited data

How the results depend on the processing

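No paired analysis was possible because each protein has 1 value per site, and no result rests on a test. Of 37 alternatives, 24 stayed within the counting interval of the value, or within 1.5 times a count, and 13 did not. The number of sites fell to 257 with both concentrations at least 4.5 and to 163 at 5, by construction, and ranged from 328 to 575 under the other limits. With matches within 25 bp, within 100 bp and in the whole site, the purine share was 14.7%, 46.4% and 66.7%, the pyrimidine share 22.9%, 62.8% and 80.2% and the share with both 6.28%, 31.9% and 56.5%, since longer windows hold more letters. The share at least 2-fold higher for the mutant was 21.5% with both concentrations at least 5, whose cause was not tested, and 8.94% with 4-fold as the limit, by construction. The gap between purine and pyrimidine sites ranged from 0.80 to 1.34, with an interval that included 0 under 4 of 6 alternatives. The median difference ranged from 0.05 to 0.11 and the median expression from 6.06 to 6.14. Library depth is not stated, so the counting error of a concentration is not known.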

Other observations

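The deposited wild type concentrations moved in steps. All 66 distinct wild type values under 5 equalled, after rounding to 2 decimals, a whole multiple of 0.470 once taken off the log2 scale. For the mutant, 76 of 319 distinct values under 5 did so with a step set in the same way from the lowest mutant value. A concentration of 4 corresponds to 34 such wild type steps and a concentration of 5 to 68, so neighbouring wild type values near the threshold are some hundredths of a unit apart. If a step were 1 read, which was not tested, counting alone would give a 95% interval of 3.47 to 4.48 at a concentration of 4 and of 4.64 to 5.34 at 5. How many libraries stand behind each concentration was not tested.

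The 414 sites were spread over 20 chromosomes. The highest counts were on chromosome 7 with 38 of its 202 promoter sites, chromosome 11 with 35 of 223 and chromosome 2 with 35 of 186. These chromosomes also had the most promoter sites, and none had a share above the 18.9% of all promoter sites. Chromosome X held 14 of 53, among them the Gata1 site.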
